A study of Mus musculus with 7 samples.

Results

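Upper-layer Cux2 nuclei were taken here as excitatory nuclei in which the counts of a set of upper-layer genes led over those of other cortical layers, and 2319 of the 58286 barcodes in the 7 libraries met this rule. A barcode was kept when it held at least 300 genes and under 5% of its unique molecular identifiers (UMIs, the tags that mark single captured RNA molecules) from mitochondrial genes, which 58169 barcodes did. Of these, 11751 had at least 2 UMIs of Slc17a7, the vesicular glutamate transporter of most cortical excitatory neurons. Membership then needed at least 3 of the 6 genes Cux2, Igfn1, Stard8, Gm765, Gm48530 and Pdzrn3, with more summed UMIs of these 6 than of the set led by Rorb (Rorb, Adam33, Kcnh5, Gm20752, Pamr1 and Ovol2) and than of the set led by Foxp2 (Foxp2, Hs3st4, Syt6, Arhgap25, Col5a1 and Rai14). The nuclei were thus selected on their own measured counts, so the levels of these 18 genes and of Slc17a7 are a description and were not tested. The same rule turned round gave 1293 Rorb nuclei and 1877 Foxp2 nuclei, used here for comparison.

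Cux2 encodes a homeobox transcription factor that is kept on in excitatory neurons of the upper cortical layers. These neurons project mainly within the cortex, to neighbouring columns, to other areas and across the corpus callosum. Rorb marks neurons around layer 4, which receive much of the thalamic input, and Foxp2 marks many layer 6 neurons that project back to the thalamus.

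The libraries came from 6-month-old 5xFAD +/- mice, whose transgenes include mutant human APP under the neuronal Thy1 promoter, so all mice of both groups model amyloid deposition and none is a plaque-free control. An ANGPT2 AAV (4 mice) or a control AAV (3 mice) had been given by retro-orbital injection at 4 months of age. Angiopoietin-2 is secreted and binds TIE2, a receptor of endothelial cells that Tek encodes, and the study compared the vectors for their effect on the diseased brain and its vessels. The ANGPT2 group held a male and a female in each of batches 1 and 2 of the labels, and the control group held a male and a female in batch 1 and a male in batch 2. The serotype and promoter of the vectors, and the species of the ANGPT2 sequence, are not given in the sources used here. Each library was 1 mouse, and its nuclei are not replicates of the treatment. Within each group, values below follow the batch 1 male, the batch 1 female, the batch 2 male and, for ANGPT2, the batch 2 female.

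The tissue label names subcortex, thalamus and hippocampus and not the cortex, so the identity of the nuclei was checked on markers outside the rule. The summed level of 10 other upper-layer genes, among them Cux1, Rasgrf2 and Unc5d, was 2584 to 3671 CPM (CPM, scaled to the summed UMIs of these nuclei) across the 7 libraries. It was 1998 to 3835 CPM in Rorb nuclei and 502 to 677 CPM in Foxp2 nuclei, so this list separated Cux2 nuclei from Foxp2 nuclei and not from Rorb nuclei. The layer 4 genes Rspo1, Scnn1a and Whrn summed to 4.49 to 31.6 CPM in Cux2 nuclei and to 65.99 to 89.97 CPM in Rorb nuclei. The 7 deep-layer genes, Fezf2 and Tle4 among them, summed to 142 to 374 CPM in Cux2 nuclei and to 712 to 911 CPM in Foxp2 nuclei. In Rorb nuclei they summed to 133 to 303 CPM, which overlaps Cux2 nuclei. Of hippocampal lists, the CA1 genes summed to 47.9 to 73.5 CPM and the CA3 genes to 10.9 to 25.3 CPM in Cux2 nuclei. In Rorb nuclei the CA1 genes summed to 43.3 to 79.6 CPM, and hippocampal neurons were not summed for comparison. The thalamic genes Tcf7l2, Lef1, Slc17a6 and Ramp3 summed to 10.9 to 85.3 CPM in Cux2 nuclei and to 11.5 to 133 CPM in Foxp2 nuclei, and thalamic neurons were not summed for comparison. By these sums Cux2 nuclei had more upper-layer and less deep-layer RNA than Foxp2 nuclei. Some of the sub-clusters described below carried other profiles.

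Total UMIs per library ran between 25466033 and 100529717. Cux2 nuclei numbered 398, 514, 70 and 80 in the ANGPT2 libraries, against 513, 684 and 60 in the control libraries, and together they held 366186 to 10712396 UMIs per library. Their median depth was 14538.5, 16265, 9098.5 and 7265 UMIs per nucleus in the ANGPT2 libraries, against 18166, 14761 and 5751 in the control libraries. Batch 2 was therefore shallower and had far fewer nuclei in both groups. There 3 UMIs, the limit that a count of 0 allows, correspond to 4.08 and 4.49 CPM in the ANGPT2 libraries and 8.19 CPM in the control library. The 3 libraries of batch 2 thus say little about genes of a few CPM, and these limits cover counting error only. Doublet calls, from the similarity of a nucleus to simulated pairs, covered 7.14% to 12.5% of the Cux2 nuclei per library and were kept in the main values. Of 56197 distinct cell barcodes, 1934 occurred in more than 1 library, and 0 of them were Cux2 nuclei in both.

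The 3 shallow libraries of batch 2 stood furthest from the rest, each being the highest of the 7 libraries in Cux2 nuclei for 17.4% to 21.3% of the 13344 genes tested. Among the deeper libraries of batch 1 the control female stood apart, as the highest for 17.1% of genes against 6.02% to 10.6% for the other 3. Changes of named genes that moved by over 1.5 times without that female are given below with and without it.

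The genes of the rule varied between libraries in ways that did not follow the treatment. Cux2 had 329, 346, 279 and 251 CPM in the ANGPT2 libraries, against 332, 681 and 437 CPM in the control libraries. It was highest in the control female of batch 1, and the other 6 libraries lay between 251 and 437 CPM. Igfn1 had 70.8, 80.3, 103 and 115 CPM in the ANGPT2 libraries, against 69.1, 56.2 and 107 CPM in the control libraries. Stard8, a GTPase-activating protein with a lipid-transfer domain, had 78.3, 72.3, 62.6 and 89.8 CPM in the ANGPT2 libraries, against 69.7, 73.2 and 92.8 CPM in the control libraries. Both genes overlapped between the groups. Gm765 had 40.2, 34.8, 66.7 and 61.3 CPM in the ANGPT2 libraries, against 47.4, 18.9 and 73.7 CPM in the control libraries. The predicted gene Gm48530 had 127, 165, 173 and 142 CPM in the ANGPT2 libraries, against 103, 58.3 and 158 CPM in the control libraries. The control female of batch 1 was the lowest library for Igfn1, Gm765 and Gm48530, and the highest for Cux2. Pdzrn3, a ubiquitin ligase with PDZ domains, had 973, 844, 1462 and 1317 CPM in the ANGPT2 libraries, against 866, 1154 and 1005 CPM in the control libraries. Slc17a7 had 240.3, 238, 250.5 and 277 CPM in the ANGPT2 libraries, against 243, 278 and 396 CPM in the control libraries.

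Members lay at varied distances from the limits of the rule. Of the 2319 nuclei, 922 had exactly 3 of the 6 genes, 830 had 4, 449 had 5 and 118 had all 6, while 985 Slc17a7 nuclei that met the other terms had 2. Exactly 2 UMIs of Slc17a7 were found in 613 members, and 639 nuclei met every other term with 1. A lead of 1 UMI over the larger other set decided 58 members, 53 nuclei tied, and 770 with at least 3 of the genes had more of another set. A Cux2 UMI was present in 86.3% to 97.4% of the members per library. In oligodendrocyte-like nuclei, which should lack the gene and whose median depth was 879 to 3012 UMIs, the share was 7.25% to 23.3%. The members were deeper, with medians of 5751 to 18166 UMIs per library. That share therefore describes background at the lower depth only, and background at the depth of the members was not measured. At least 3 of the 6 genes were found in 9 to 36 of 1293 to 2476 oligodendrocyte-like nuclei per library, again at the lower depth.

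Against Rorb and Foxp2 nuclei of the same libraries, 214 genes were higher and 183 lower in Cux2 nuclei in all 7 libraries. Only genes outside the rule with a mean of at least 50 CPM were counted. That limit applied in Cux2 nuclei for the higher genes and in both other kinds for the lower ones. This is a description, since the nuclei were sorted by their counts. The gene that stood out most by the smaller of the mean log2 differences was Trpc6, a calcium-permeable cation channel, with 134 ± 18.5 CPM in Cux2 nuclei, 22.5 ± 11.2 CPM in Rorb nuclei and 18.04 ± 7.06 CPM in Foxp2 nuclei (SD, n = 7). Prex1, an exchange factor for Rac, followed the same pattern with 115 ± 37.6 CPM in Cux2 nuclei, 24.9 ± 13.9 CPM in Rorb nuclei and 24.7 ± 10.99 CPM in Foxp2 nuclei. Lrrtm4, a synaptic adhesion protein of excitatory synapses, had 6232 ± 1373 CPM in Cux2 nuclei, 2140.1 ± 418 CPM in Rorb nuclei and 1809 ± 270.5 CPM in Foxp2 nuclei. The other 7 of the first 10 were Ccbe1, Igsf11, Syt17, Cpne5, Gucy1a1, Sorcs3 and Dgkb. At the other end stood Kcnk2, a background potassium channel, with 19.6 ± 8.02 CPM in Cux2 nuclei, 102 ± 35.8 CPM in Rorb nuclei and 89.4 ± 22.3 CPM in Foxp2 nuclei. Htr1f, a serotonin receptor, had 39.6 ± 13.4 CPM in Cux2 nuclei, 179 ± 72.9 CPM in Rorb nuclei and 398 ± 103 CPM in Foxp2 nuclei. Pcp4, a calmodulin-binding protein common in deep-layer neurons, had 23.6 ± 7.51 CPM in Cux2 nuclei, 73.9 ± 30.1 CPM in Rorb nuclei and 94.8 ± 24.7 CPM in Foxp2 nuclei. Olfm3, Shisa6, Tox, Samd5, Vwc2l, Hs3st5 and Grik3 were also among the 10 lowest.

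**Figure D1:**
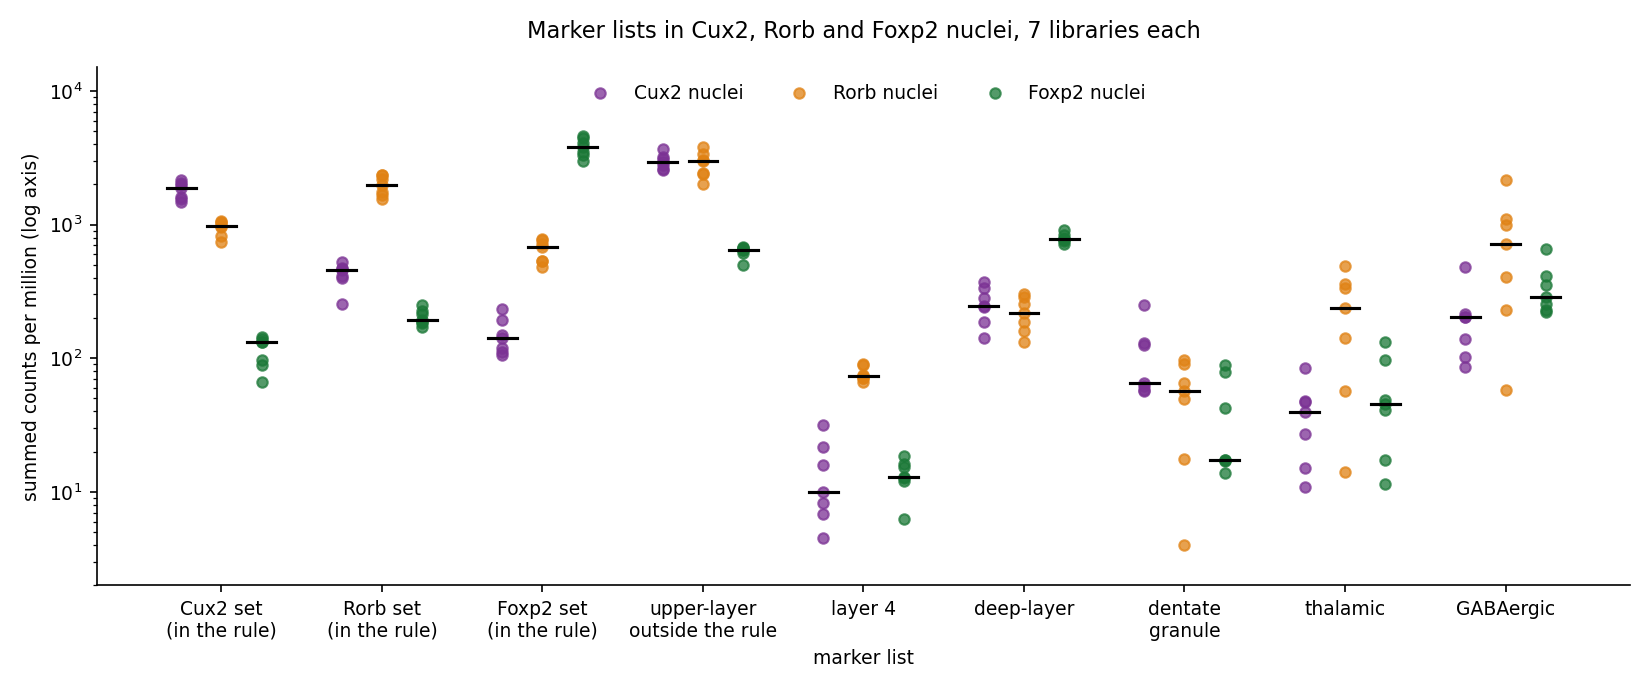
Summed CPM of each marker list in Cux2, Rorb and Foxp2 nuclei, on a log axis, with 1 point per library and a black line at the median. The 10 upper-layer genes outside the rule summed to 2584 to 3671 CPM in Cux2 nuclei, above the 502 to 677 CPM of Foxp2 nuclei and overlapping the range of Rorb nuclei.

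Marker lists of other cell types were read in the same nuclei. Astrocyte genes (6, Slc1a2 and Aqp4 among them) summed to 432 to 573 CPM and oligodendrocyte genes (6, Mbp among them) to 232 to 443 CPM across the libraries. The 5 GABAergic genes, Gad1 and Gad2 among them, summed to 139.5, 215, 85.8 and 480.2 CPM in the ANGPT2 libraries, against 203, 102 and 205 CPM in the control libraries. The ANGPT2 female of batch 2 was the highest for them. The 4 choroid plexus genes, of which Ttr is the most abundant, summed to 62.2, 256, 21.8 and 11.97 CPM in the ANGPT2 libraries, against 64.4, 76.7 and 79.2 CPM in the control libraries, highest in the ANGPT2 female of batch 1. The 4 dentate granule genes summed to 62.2, 56.5, 65.3 and 130.2 CPM in the ANGPT2 libraries, against 58.3, 251 and 126 CPM in the control libraries, highest in the control female of batch 1. Of the 4 lymphocyte genes, Cd3e was at 0 in every library.

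The Cux2 nuclei fell into 16 sub-clusters when clustered among themselves, which again is a description. The largest, with 379 nuclei from all 7 libraries, was led by Dpyd, Arhgef28 and Tafa1, which encodes a secreted TAFA peptide. Sub-clusters led by Gm765 and Col26a1 (272 nuclei) and by Kctd8 and Rgs20 (264 nuclei) came next. A sub-cluster of 199 nuclei was led by Rorb and Adam33, so nuclei near the border to layer 4 were among the members. Tshz2, a zinc finger gene of some deep-layer neurons, was a leading gene of sub-clusters of 181 and 47 nuclei, whose 7 deep-layer genes summed to 1212 and 2311 CPM. A sub-cluster of 118 was led by Il1rapl2, Sema3e and Rspo2, and one of 37 by the claustrum and layer 6 genes Oprk1, Nr4a2 and Gnb4. A further 111 nuclei carried oligodendrocyte genes and 57 GABAergic genes, and 91.9% and 91.2% of these were doublet calls. A sub-cluster of 33 nuclei came from batch 2 alone, with 12 and 16 nuclei in the ANGPT2 libraries and 5 in the control library.

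Sub-clusters of its own held most of the control female of batch 1. Of its 684 Cux2 nuclei, 457 (66.8%) lay in 3 sub-clusters that it filled to between 98.8% and 100%. They were led by Blnk, Nptx2 and Inpp4b (249 nuclei), by Tnfaip6, Inhba, Ptgs2, Npas4 and Bdnf (139 nuclei), and by Whrn, Vwc2l, Rorb and Hs3st4 (72 nuclei). It contributed 14, 3 and 14 nuclei to the 3 largest sub-clusters, to which the control male of batch 1 contributed 101, 91 and 56. Among these, Nptx2 encodes a pentraxin that gathers AMPA receptors at synapses and Ptgs2 encodes cyclooxygenase-2. Both are known to be induced by neuronal activity.

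**Figure D2:**
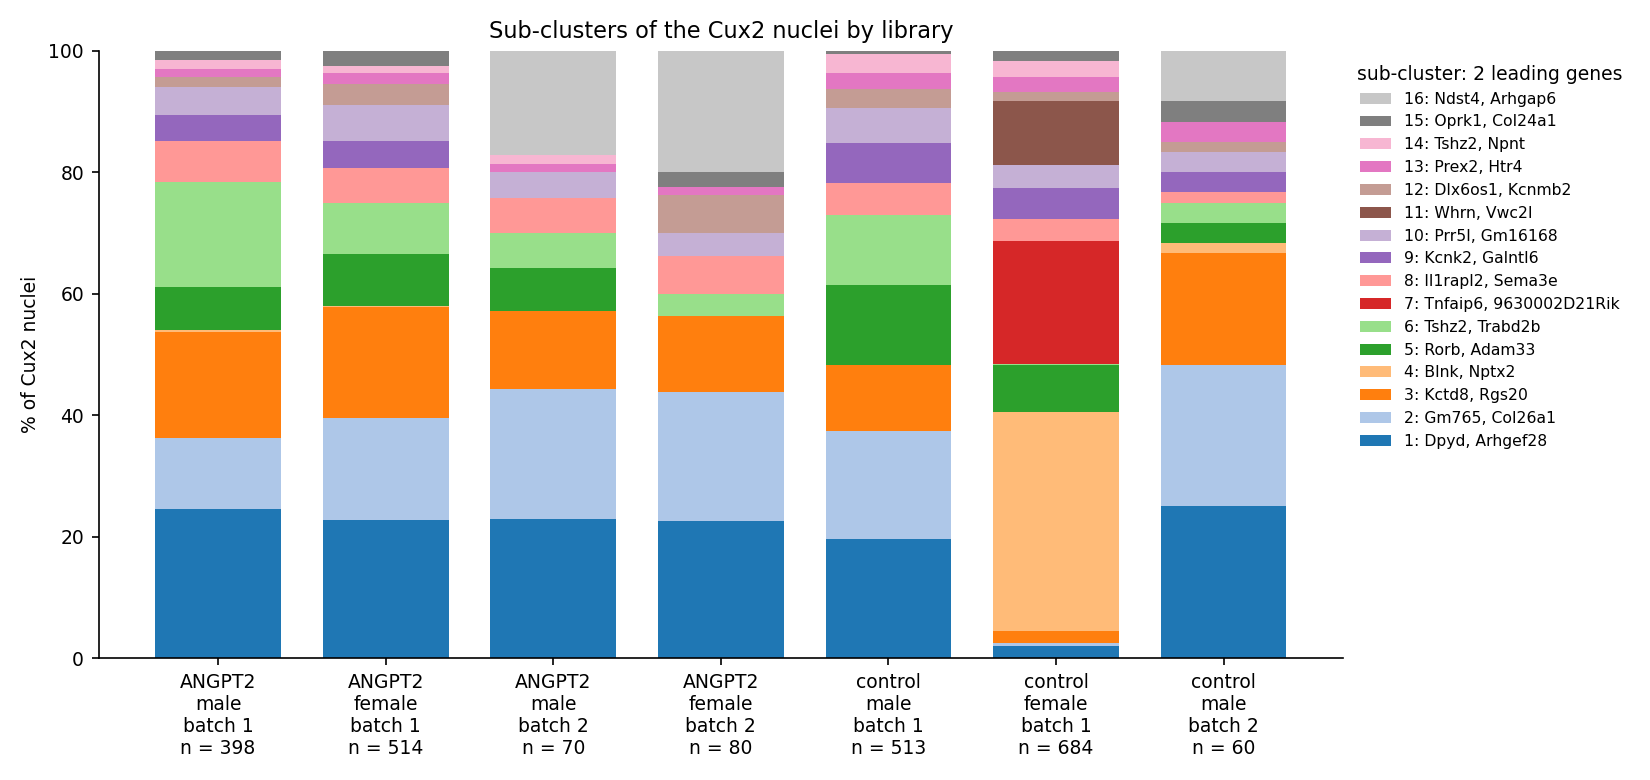
Share of each library's Cux2 nuclei, in percent, in each of the 16 sub-clusters, with the ANGPT2 libraries left of the control libraries. The control female of batch 1 has 66.8% of its nuclei in 3 sub-clusters that hold at most 1 nucleus of any other library.

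Genes that neurons switch on within minutes to hours of strong activity were the clearest feature of that library. A pair of promoters is shown because both carry the motif described next and both genes have some of the largest gaps in the values that follow. They are the 300 bases around the start sites of Npas4 (chr19:4989922-4990221, minus strand) and of 1 of 7 listed Bdnf transcripts (chr2:109692186-109692485, plus strand), from RefSeq on GRCm38.p6, 5′ to 3′, with the core of the CREB site (TGACGT, or ACGTCA on the other strand) in capitals.
Npas4: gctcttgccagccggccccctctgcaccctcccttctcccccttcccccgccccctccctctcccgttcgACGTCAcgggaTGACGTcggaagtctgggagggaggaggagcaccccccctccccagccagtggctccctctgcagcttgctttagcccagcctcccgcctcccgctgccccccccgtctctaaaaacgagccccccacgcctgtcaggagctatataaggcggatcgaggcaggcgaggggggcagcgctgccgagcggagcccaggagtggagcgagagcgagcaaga
Bdnf: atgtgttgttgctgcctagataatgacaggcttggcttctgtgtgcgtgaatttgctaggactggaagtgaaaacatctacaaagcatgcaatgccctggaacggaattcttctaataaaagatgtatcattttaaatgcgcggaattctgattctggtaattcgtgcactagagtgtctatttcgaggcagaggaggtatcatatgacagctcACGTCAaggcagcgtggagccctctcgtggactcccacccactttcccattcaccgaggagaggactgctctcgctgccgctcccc
The calcium-regulated factor CREB binds this kind of site. It was present, on either strand, in the windows of 250 bases before to 50 after the start of 9 of the 14 activity-regulated genes with a listed window (64.3%), Fos, Egr2, Egr4, Dusp1, Btg2, Nr4a3 and Homer1 included. Of all 27025 genes with a window, 8.37% had it. A match of letters is a description and shows no binding.

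Npas4, an activity-dependent transcription factor, had 3.19, 6.65, 1.36 and 2.99 CPM in the ANGPT2 libraries, against 6.19, 60.1 and 10.9 CPM in the control libraries. Bdnf, the neurotrophin, had 31.9, 40.9, 28.6 and 46.4 CPM in the ANGPT2 libraries, against 40.3, 269 and 40.96 CPM in the control libraries. It was the control female of batch 1 that lay far above every other library for both, and among the other 6 the groups overlapped. Fosb, a partner of the AP-1 complex, had 1.51, 2.18, 4.08 and 0 CPM in the ANGPT2 libraries, against 1.73, 18.6 and 8.19 CPM in the control libraries. Nptx2 had 9.56, 12.9, 20.4 and 14.96 CPM in the ANGPT2 libraries, against 11.5, 135 and 2.73 CPM in the control libraries. Fos, another AP-1 member, had 2.52, 7.45, 6.81 and 2.99 CPM in the ANGPT2 libraries, against 4.57, 26.6 and 5.46 CPM in the control libraries. Arc, which regulates AMPA receptor uptake, had 11.1, 21.8, 12.3 and 5.98 CPM in the ANGPT2 libraries, against 13.5, 54.98 and 27.3 CPM in the control libraries. In each the same library was the highest. Of 20 activity-regulated genes, it was the highest library for 17 in Cux2 nuclei. It was so for 8 of 20 in Rorb nuclei, 18 in Foxp2 nuclei, 19 in the other Slc17a7 nuclei and all 20 when every barcode of the library was summed, so the feature was not limited to Cux2 nuclei. With the 3 sub-clusters of that library left out it was still the highest for 17 of 20 in Cux2 nuclei.

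**Figure D3:**
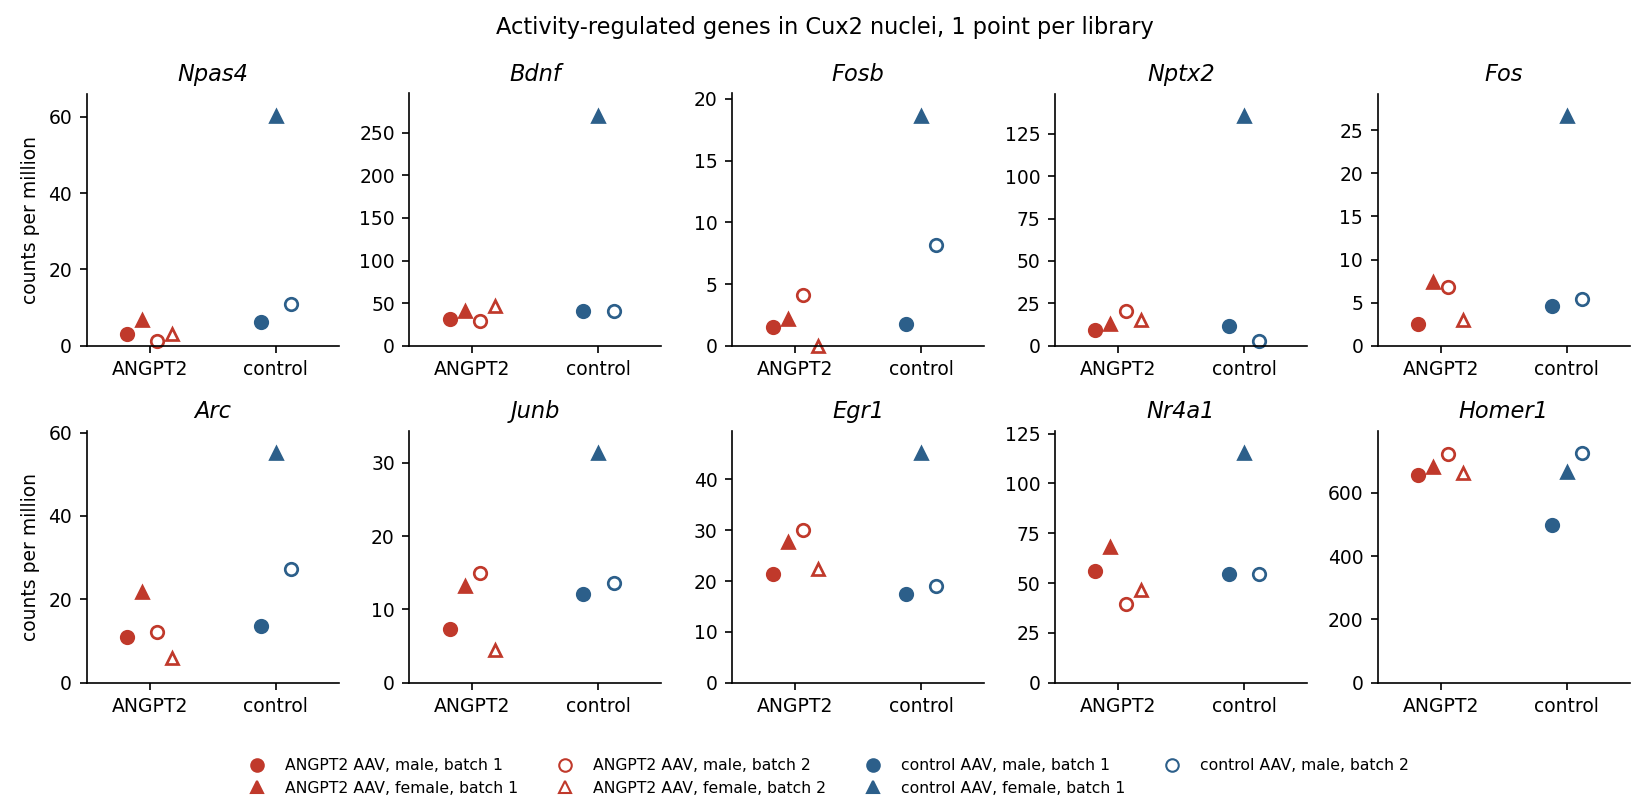
CPM of activity-regulated genes in Cux2 nuclei on linear axes that start at 0, 1 panel per gene and 1 point per library, with the ANGPT2 libraries left of the control libraries for each gene. The control female of batch 1 is the highest point in every panel except that of Homer1, with Npas4 at 60.1 and Bdnf at 269 CPM.

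ANGPT2 AAV was compared with control AAV on UMIs summed per library over the Cux2 nuclei, with edgeR's quasi-likelihood test and Benjamini-Hochberg adjustment over all genes tested. The comparison asks what the ANGPT2 vector changed in these neurons. Of 13344 genes, 0 (0%) passed an adjusted p of 0.05. With edgeR, 345 genes (2.59%) were higher and 370 (2.77%) lower at an unadjusted p under 0.05, and with DESeq2 0 genes passed and 338 had an unadjusted p under 0.05. Every ANGPT2 library was above every control library for 221 genes (1.66%) and below for 494 (3.70%). Over all genes the median log2 change, ANGPT2 over control, was -0.01, with 6468 higher and 6876 lower. Leaving out the control male of batch 1 gave 116 genes past the threshold, 12 higher and 104 lower. The control group then held only the female that stood apart and the shallow male of batch 2. Leaving out any 1 of the other 6 libraries gave 0. With no filter on low counts, 8 genes passed, all of them lower. In these summed counts a change in the kinds of nuclei and a change in RNA per nucleus cannot be told apart. None of the genes described below passed the threshold in this comparison, and the adjusted p was 0.929 for each of the 24 genes of smallest p.

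Among the 12 genes of smallest p on the higher side was Rarb (mouse genome mm10, chromosome 14, 16430839 to 16819156), a receptor for retinoic acid, with 31.02, 37.7, 40.8 and 37.4 CPM in the ANGPT2 libraries, against 21.7, 15.96 and 21.8 CPM in the control libraries. All 4 ANGPT2 libraries lay above all 3 control libraries, with a log2 change of 0.97 ± 0.19 (SE) and an unadjusted p of 0.000230. Without the control female of batch 1 the change was 0.82. Otof (chromosome 5, 30367062 to 30461932), which encodes the calcium sensor otoferlin and is a known marker of superficial cortical neurons, had 38.4, 35.6, 35.4 and 31.4 CPM in the ANGPT2 libraries, against 23.3, 16.3 and 21.8 CPM in the control libraries. Its groups were also apart, with a log2 change of 0.89 ± 0.18 (SE), or 0.74 without that library. Pak6, a kinase of the p21-activated family, had 35.5, 39.3, 39.5 and 50.9 CPM in the ANGPT2 libraries, against 25.9, 19.4 and 24.6 CPM in the control libraries, again with no overlap (0.87 ± 0.20 (SE)). Cdh10, a cadherin, had 507, 535, 619 and 533 CPM in the ANGPT2 libraries, against 406, 255 and 445 CPM in the control libraries. Its log2 change was 0.70 ± 0.19 (SE), and the lowest value was that of the control female of batch 1. Npas3, a neuronal transcription factor, had 169.9, 171, 142 and 298 CPM in the ANGPT2 libraries, against 119, 52.3 and 126 CPM in the control libraries (1.15 ± 0.31 (SE)). Gpc3, a glypican, had 7.04, 4.58, 6.81 and 8.98 CPM in the ANGPT2 libraries, against 2.44, 2.33 and 2.73 CPM in the control libraries (1.40 ± 0.37 (SE)), and both groups were at few UMIs.

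Mtss1, which shapes membranes through actin, had 24.3, 24.3, 29.9 and 47.9 CPM in the ANGPT2 libraries, against 14.9, 11.4 and 21.8 CPM in the control libraries, and its groups were apart (1.12 ± 0.29 (SE)). Sil1, a cofactor of the endoplasmic reticulum chaperone encoded by Hspa5, had 52.5, 60.96, 66.7 and 55.4 CPM in the ANGPT2 libraries, against 44.9, 35.6 and 38.2 CPM in the control libraries (0.61 ± 0.16 (SE)). Gm4876, annotated as antisense to Tes, had 79.8, 80.8, 87.1 and 121 CPM in the ANGPT2 libraries, against 60.8, 45.8 and 57.3 CPM in the control libraries (0.82 ± 0.20 (SE)). In these 3 genes no ANGPT2 library fell below a control library. Rbm20, a splicing factor best known from heart muscle, had 19.8, 24.8, 35.4 and 25.4 CPM in the ANGPT2 libraries, against 10.3, 11.6 and 21.8 CPM in the control libraries (1.12 ± 0.28 (SE)). The long noncoding RNA 4930467D21Rik had 26.2, 22.00, 8.17 and 34.4 CPM in the ANGPT2 libraries, against 9.03, 9.99 and 8.19 CPM in the control libraries (1.32 ± 0.31 (SE)). 9530026P05Rik, antisense to Adamts9, had 33.03, 46.2, 12.3 and 61.3 CPM in the ANGPT2 libraries, against 18.4, 14.7 and 21.8 CPM in the control libraries (1.22 ± 0.33 (SE)). In these last 3 the groups overlapped, because a batch 2 library crossed over in each.

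On the lower side, several of the 12 genes of smallest p rested on the control female of batch 1. Blnk (chromosome 19, 40928927 to 40994535), an adaptor known from B-cell receptor signalling, had 8.72, 10.2, 1.36 and 1.50 CPM in the ANGPT2 libraries, against 19.8, 81.4 and 8.19 CPM in the control libraries. Its log2 change was -2.50 ± 0.56 (SE), or -1.08 without that library. Npas4, whose values stand above, had a log2 change of -2.76 ± 0.70 (SE), or -0.44 without it. Lpar1, a receptor for lysophosphatidic acid, had 9.05, 7.56, 10.9 and 10.5 CPM in the ANGPT2 libraries, against 15.1, 52.8 and 8.19 CPM in the control libraries. Its change was -1.80 ± 0.47 (SE), or -0.65 without that library. Gadd45g, a stress-inducible gene, had 1.01, 1.60, 0 and 1.50 CPM in the ANGPT2 libraries, against 2.74, 26.8 and 2.73 CPM in the control libraries. Gxylt2, a xylosyltransferase, had 1.68, 2.41, 0 and 0 CPM in the ANGPT2 libraries, against 2.03, 38.7 and 5.46 CPM in the control libraries. Both were at few UMIs outside that library, and without it neither passed the filter on low counts.

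For other genes on that side the groups stayed apart whichever control library was looked at. Gfra2, the receptor of the growth factor neurturin, had 35.04, 26.9, 31.3 and 28.4 CPM in the ANGPT2 libraries, against 46.3, 70.1 and 57.3 CPM in the control libraries. Its log2 change was -0.89 ± 0.21 (SE), or -0.57 without the control female of batch 1. Trpc4, a cation channel, had 46.8, 44.2, 44.9 and 25.4 CPM in the ANGPT2 libraries, against 63.03, 73.7 and 81.9 CPM in the control libraries. Its log2 change was -0.71 ± 0.18 (SE), or -0.57 without that library. Iffo1, an intermediate filament protein, had 33.5, 42.2, 28.6 and 22.4 CPM in the ANGPT2 libraries, against 53.8, 59.6 and 43.7 CPM in the control libraries (-0.65 ± 0.18 (SE)). Mrps26, a protein of the mitochondrial ribosome, had 18.1, 15.8, 8.17 and 10.5 CPM in the ANGPT2 libraries, against 24.6, 27.7 and 30.04 CPM in the control libraries (-0.81 ± 0.22 (SE)). In each, every control library was above every ANGPT2 library. The rest were at few UMIs. Cthrc1, a secreted protein, had 5.53, 7.79, 4.08 and 4.49 CPM in the ANGPT2 libraries, against 11.1, 12.6 and 13.7 CPM in the control libraries (-0.94 ± 0.26 (SE)). Rgcc, a cell-cycle regulator, had 1.84, 1.60, 1.36 and 0 CPM in the ANGPT2 libraries, against 5.18, 3.83 and 8.19 CPM in the control libraries (-1.57 ± 0.42 (SE)). C1ra, a complement protease, had 0.838, 1.72, 1.36 and 1.50 CPM in the ANGPT2 libraries, against 4.36, 3.55 and 2.73 CPM in the control libraries (-1.52 ± 0.41 (SE)), and its close copy C1rb makes its counts uncertain. Of these 24 genes the groups were apart for 17, against the 1.66% and 3.70% of all genes given above. They were picked by their p, so that share is no evidence. For 11 of the 24 the annotation has another gene in the same stretch, and the use of strand in counting is not given in the sources used here, so reads of such pairs may be mixed.

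**Figure D4:**
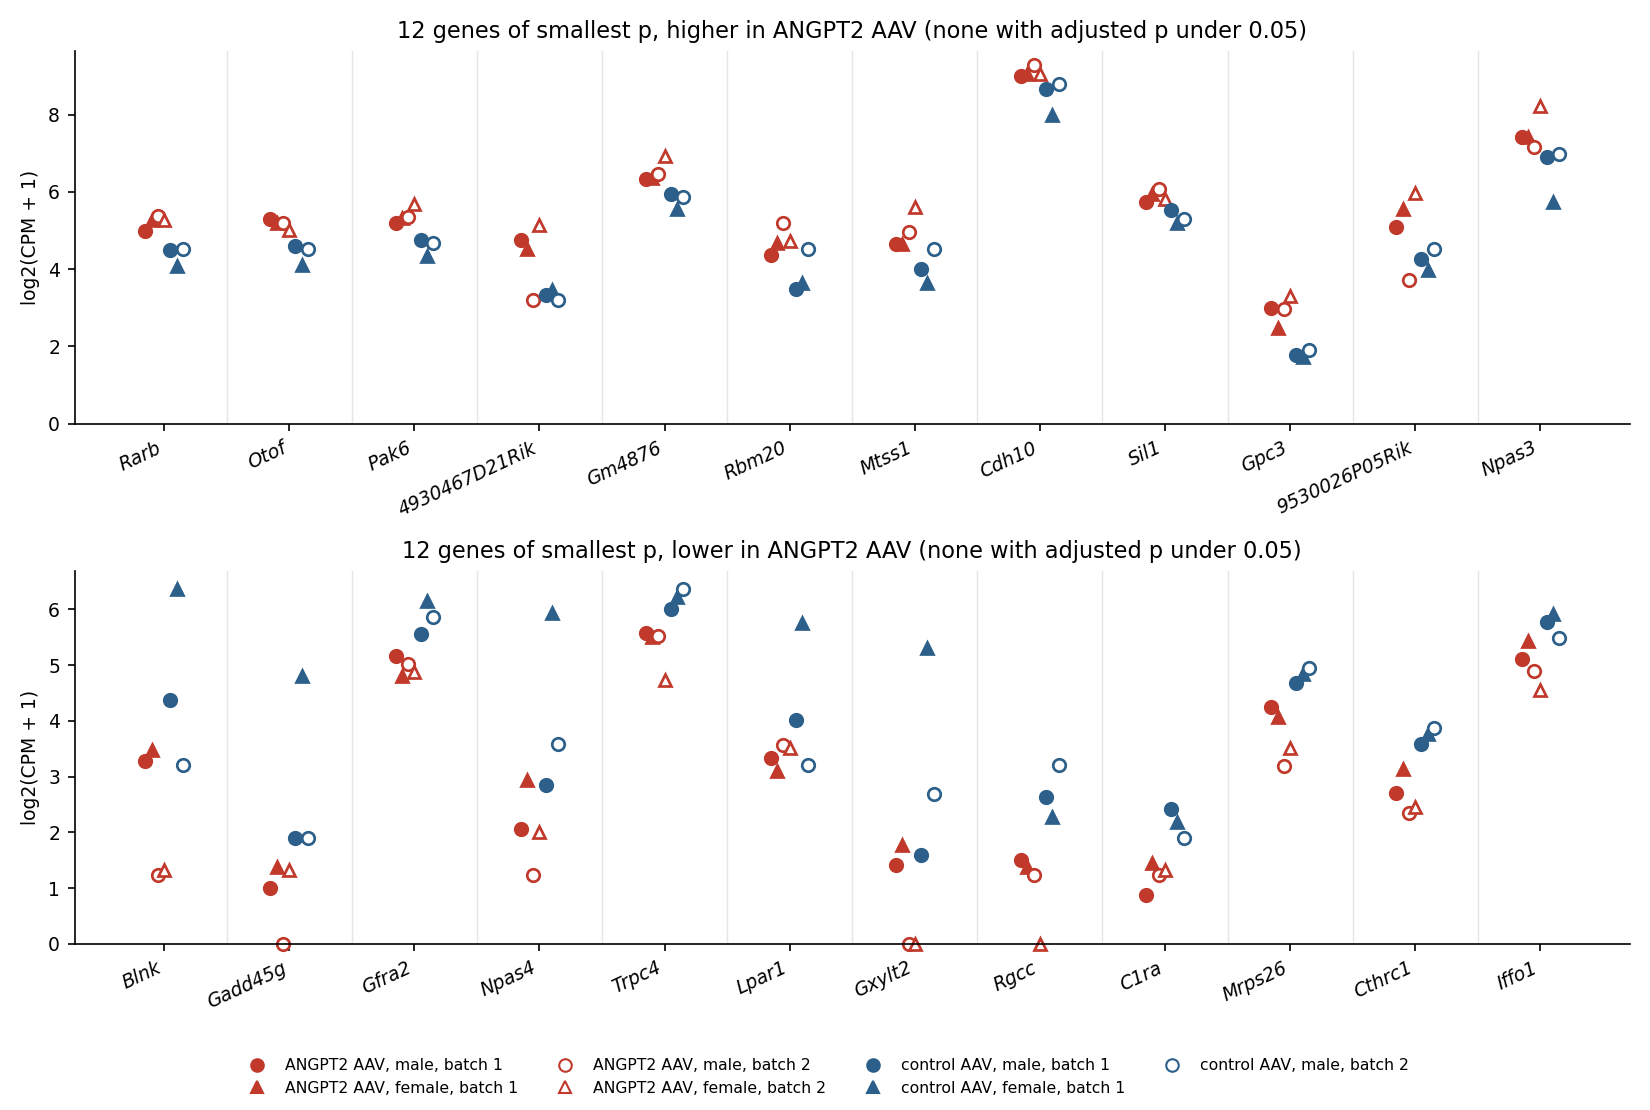
Log2(CPM + 1) in Cux2 nuclei of the 12 genes of smallest p on the higher side and the 12 on the lower side, 1 point per library, with the ANGPT2 libraries left of the control libraries. The groups do not overlap for 17 of the 24 genes, and 0 genes pass the adjusted threshold.

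The genes behind the vector and the model were measured in the same nuclei. Angpt2 had 1.84, 1.60, 1.36 and 5.98 CPM in the ANGPT2 libraries, against 1.73, 2.33 and 2.73 CPM in the control libraries. The ANGPT2 female of batch 2 was the highest at 4 UMIs, the other 6 libraries were between 1.36 and 2.73 CPM, and the log2 change was -0.04 ± 0.49 (SE). Whether a transcript of the vector would be counted under mouse Angpt2 is not given in the sources used here. Tek, the TIE2 receptor, had 2.01, 2.98, 4.08 and 4.49 CPM in the ANGPT2 libraries, against 1.22, 1.12 and 0 CPM in the control libraries. The ANGPT2 libraries were all above the control libraries at a log2 change of 1.32 ± 0.47 (SE) and an unadjusted p of 0.0151, but on at most 26 UMIs in any library. In batch 2 both ANGPT2 values were 3 UMIs, and the 0 of the control library has a limit of 8.19 CPM, above every ANGPT2 library. The order of the groups is therefore not resolved in batch 2. Of the 5 endothelial genes, Flt1 and Cldn5 among them, the summed level was 2.01, 2.98, 10.9 and 2.99 CPM in the ANGPT2 libraries, against 3.35, 1.59 and 0 CPM in the control libraries, and its part in the Tek values was not tested. Nrp1, a co-receptor of VEGF and semaphorins, had 32.4, 29.8, 19.1 and 28.4 CPM in the ANGPT2 libraries, against 39.5, 128 and 32.8 CPM in the control libraries. Its change was -1.36 ± 0.39 (SE), or -0.30 without the control female of batch 1. Of the 9 tested genes of the angiopoietin and VEGF list, 5 were higher and 4 lower, with a median of 0.23. The median was -0.03 with the batch as a replicate block and -0.13 without the ANGPT2 female of batch 2, so the list had no stable direction.

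App, the amyloid precursor, had 578, 568, 531 and 503 CPM in the ANGPT2 libraries, against 544, 510.4 and 649.9 CPM in the control libraries. Thy1, whose promoter drives the transgenes, had 80.3, 90.98, 69.4 and 53.9 CPM in the ANGPT2 libraries, against 85.3, 73.1 and 92.8 CPM in the control libraries. The groups overlapped for both, with log2 changes of 0.05 ± 0.14 (SE) for App and -0.04 ± 0.15 (SE) for Thy1. How reads of the human transgenes were assigned is not given in the sources used here. Of the 17 tested genes for amyloid precursor processing, 8 of 17 were higher and 9 lower, at a median of -0.03, or 0.02 with 9 of 17 higher and 8 lower without the control female of batch 1.

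Lists for the functions of these neurons were read against the whole table, in which 48.5% of genes were at or above 0 and the median was -0.01. For the upper-layer identity genes outside the rule, 10 of 14 were higher and 4 lower, at a median log2 change of 0.27, or 0.22 without the control female of batch 1. Without the ANGPT2 male of batch 2 the median was 0.15. At an unadjusted p under 0.05, Otof and Calb1 were on the higher side and Inhba on the lower. Calb1, the calcium-binding protein calbindin, had 53.7, 57.8, 62.6 and 85.3 CPM in the ANGPT2 libraries, against 44.8, 22.4 and 54.6 CPM in the control libraries. The groups overlapped by 1 library, and the change of 0.87 ± 0.27 (SE) was 0.52 without that female, its lowest library. Inhba, a subunit of activin known to follow neuronal activity, had 7.38, 8.48, 13.6 and 17.95 CPM in the ANGPT2 libraries, against 10.6, 60.02 and 2.73 CPM in the control libraries. Its change of -1.69 ± 0.62 (SE) was -0.01 without that library. Of the 11 tested genes of telencephalic excitatory identity, 4 of 11 were higher and 7 lower, or 5 of 11 higher and 6 lower without it. Emx1, a cortical homeobox gene, had 10.6, 16.4, 14.97 and 13.5 CPM in the ANGPT2 libraries, against 18.5, 27.9 and 21.8 CPM in the control libraries. The groups were apart, with a log2 change of -0.73 ± 0.25 (SE), or -0.38 without it.

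Inhibitory receptor subunits lay on the ANGPT2 side. Of the 12 tested GABA-A receptor subunits, 12 of 12 were higher and 0 lower, at a median of 0.21, or 0.20 with 11 higher and 1 lower without the control female of batch 1. Without the ANGPT2 female of batch 2 the median was 0.14. Gabrb2, a beta subunit, had 604, 587, 705 and 741 CPM in the ANGPT2 libraries, against 545, 473 and 579 CPM in the control libraries. Gabra3, an alpha subunit, had 113, 99.9, 155 and 111 CPM in the ANGPT2 libraries, against 86.6, 92.3 and 92.8 CPM in the control libraries. The groups were apart for both, at log2 changes of 0.42 ± 0.17 (SE) and 0.47 ± 0.19 (SE), and without the ANGPT2 male of batch 2 the change of Gabra3 was 0.30.

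Of the AMPA receptor subunits and auxiliaries, 7 of 12 were higher and 5 lower, at a median of 0.21, or 0.16 with 9 of 12 higher and 3 lower without the control female of batch 1. Gria3, a pore subunit, had 1069, 1028, 1197 and 1339 CPM in the ANGPT2 libraries, against 869.7, 539 and 1188 CPM in the control libraries. Its lowest value was in the control female of batch 1 and the groups overlapped (0.56 ± 0.23 (SE), or 0.33 without it). Gria4 and the scaffold Grip1 had log2 changes of 0.39 ± 0.18 (SE) and 0.55 ± 0.25 (SE), and without the ANGPT2 female of batch 2 that of Grip1 was 0.24. Of the kainate and metabotropic glutamate receptors, 10 of 11 were higher and 1 lower, at a median of 0.14, or 0.26 with 8 of 11 higher and 3 lower without the control female of batch 1. Those at an unadjusted p under 0.05 were Grik2 (0.47 ± 0.19 (SE)), Grm5 (0.42 ± 0.19 (SE)) and Grm3 (0.61 ± 0.27 (SE), or 0.25 without that library). Of the 6 tested NMDA receptor subunits, 3 of 6 were higher and 3 lower, or 3 of 4 higher and 1 lower without it. Postsynaptic scaffolds had a median of 0.09, and 12 of 14 were higher and 2 lower, or 9 of 14 higher and 5 lower without it.

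Adhesion and guidance lists had most of their members on the higher side. Of the 21 synaptic adhesion genes, 17 of 21 were higher and 4 lower, at a median of 0.21. Lrrtm4, a leading gene of these nuclei, had 6126, 6417, 7965 and 7072 CPM in the ANGPT2 libraries, against 5794, 3559 and 6691 CPM in the control libraries. Its lowest library was the control female of batch 1, and the change of 0.49 ± 0.22 (SE) was 0.30 without it. Lrfn5 and Lrrtm3, both leucine-rich repeat synaptic proteins, had changes of 0.43 ± 0.19 (SE) and 0.44 ± 0.20 (SE), or 0.27 and 0.23 without that library. Of the 24 axon guidance genes, 20 of 24 were higher and 4 lower, at a median of 0.28, or 0.34 without that library. Robo1, a receptor of Slit proteins, had 612, 593, 702 and 1064 CPM in the ANGPT2 libraries, against 518, 318 and 604 CPM in the control libraries (0.77 ± 0.26 (SE), or 0.51 without the ANGPT2 female of batch 2). Ephb1, an ephrin receptor, had 92.4, 102, 136 and 98.7 CPM in the ANGPT2 libraries, against 75.5, 64.9 and 107 CPM in the control libraries (0.54 ± 0.20 (SE)). Sema5a, a transmembrane semaphorin, went the other way with 17.3, 22.00, 14.97 and 25.4 CPM in the ANGPT2 libraries, against 33.1, 28.8 and 73.7 CPM in the control libraries. Its groups were apart, the control male of batch 2 was the highest, and the log2 change was -0.86 ± 0.27 (SE).

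Of the sodium and calcium channel genes, 12 of 19 were higher and 7 lower, at a median of 0.10, or 0.14 with 16 of 19 higher and 3 lower without the control female of batch 1. Cacna1g, a T-type calcium channel, had 61.2, 52.7, 44.9 and 32.9 CPM in the ANGPT2 libraries, against 70.7, 105 and 46.4 CPM in the control libraries (-0.62 ± 0.24 (SE), or -0.23 without it). Of the potassium and HCN channel genes, 11 of 18 were higher and 7 lower, at a median of 0.08, or 0.14 with 13 of 18 higher and 5 lower without that library. Kcnj3, a channel opened by G proteins, had 527, 547, 672 and 793 CPM in the ANGPT2 libraries, against 471, 349.9 and 535 CPM in the control libraries. Only the control male of batch 2 reached the ANGPT2 range (0.62 ± 0.21 (SE)). Of the 25 presynaptic release genes, 14 of 25 were higher and 11 lower, at a median of 0.01, or 0.17 with 19 of 25 higher and 6 lower without the control female of batch 1. Cplx1 and Cplx2, the complexins that clamp vesicle fusion, had changes of 0.40 ± 0.18 (SE) and 0.34 ± 0.16 (SE). Sv2c, a vesicle protein, had -0.78 ± 0.35 (SE), or 0.02 without the control female of batch 1 and -1.21 with the batch 1 control male left out. All 5 tested genes of transmitter transport were lower, at a median of -0.07, and without the control female of batch 1 there was 1 higher. With the batch 1 control male left out their median was 0.04.

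The list furthest from the whole table was that of the activity-regulated genes, and it rested on 1 library. Of the 18 tested, 1 of 18 were higher and 17 lower, 10 of them at an unadjusted p under 0.05, with a median of -0.91. Without the control female of batch 1 the median was 0.09 and 11 of 18 were higher. Bdnf had a change of -1.81 ± 0.55 (SE), or -0.04 without it, and Fosb -2.42 ± 0.76 (SE), or -0.09 without it. The neuropeptide and neurotrophin list followed the same library. Of its 11 tested genes 2 of 11 were higher and 9 lower, at a median of -0.64, or -0.01 without that library. Nrn1, a neuritin that activity induces, had 66.4, 73.1, 46.3 and 56.9 CPM in the ANGPT2 libraries, against 69.7, 177 and 65.5 CPM in the control libraries (-0.79 ± 0.31 (SE), or -0.01). Chgb, a granule protein, had -0.64 ± 0.27 (SE), or -0.07.

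**Figure D5:**
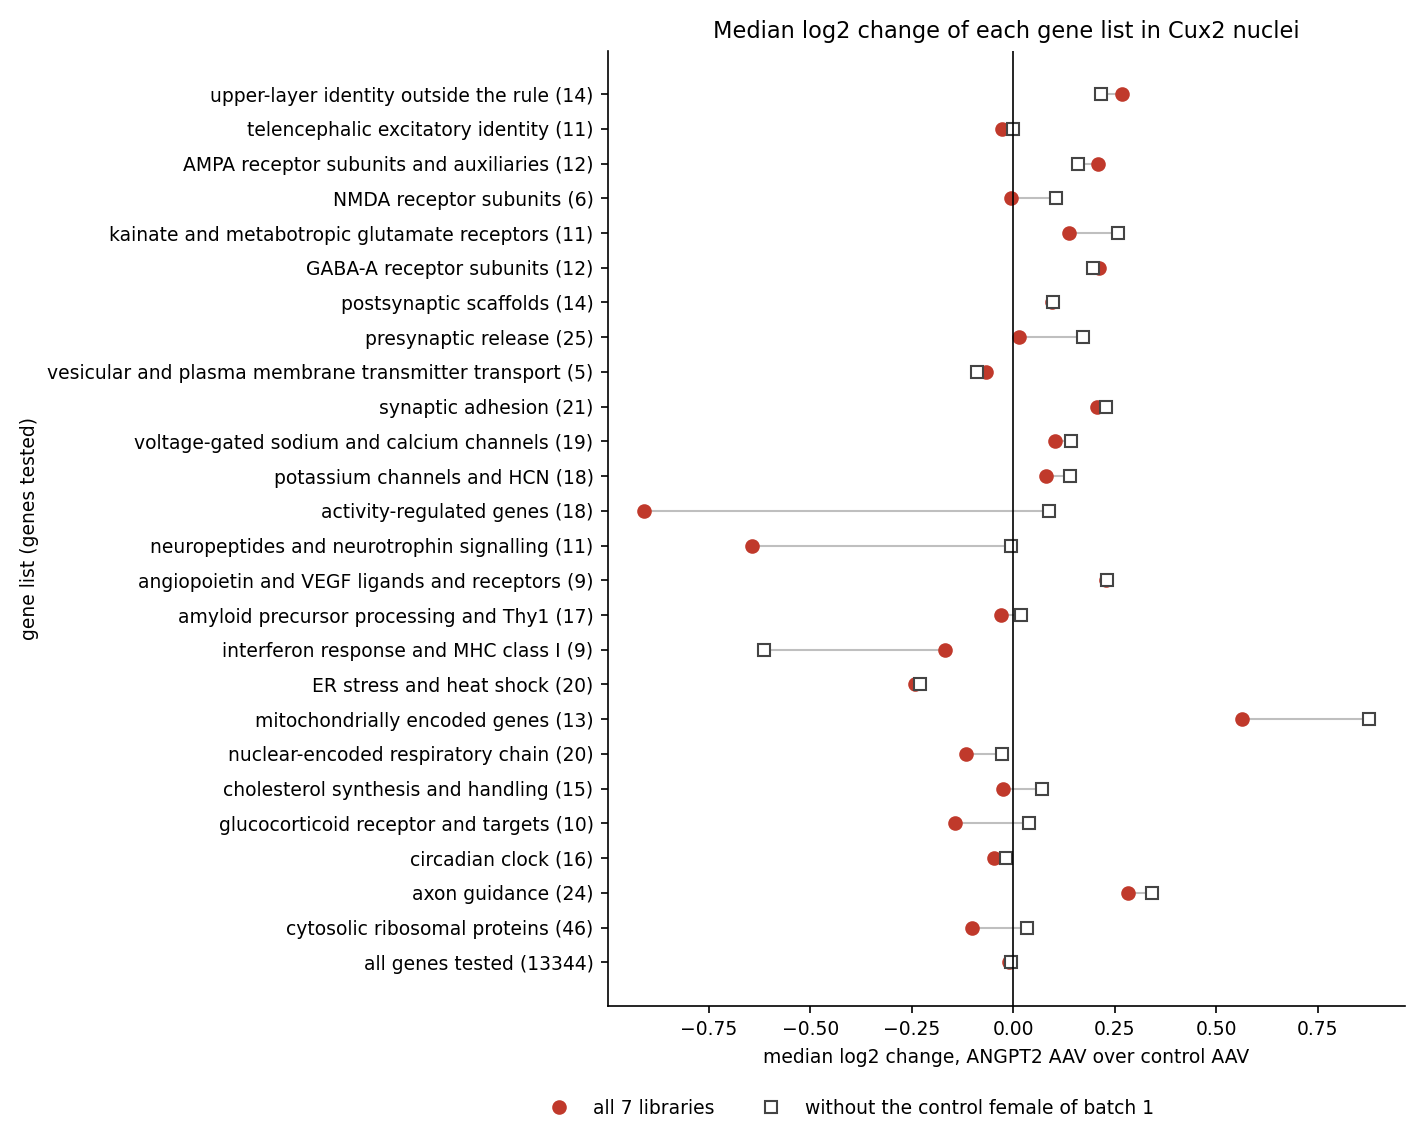
Median log2 change, ANGPT2 over control, of the tested genes of each list in Cux2 nuclei, with all 7 libraries and without the control female of batch 1. The activity-regulated genes lie at -0.91 with all libraries and at 0.09 without that library, and all genes tested lie at -0.01 in both.

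Mitochondrially encoded transcripts were the list most to the ANGPT2 side. Of the 13 tested, 13 of 13 were higher and 0 lower, 6 at an unadjusted p under 0.05, with a median of 0.56, or 0.88 without the control female of batch 1. The batch 1 control male was the lowest library for them, and with it left out the median was 0.17. mt-Nd1, a subunit of complex I, had 56.5, 87.9, 74.9 and 52.4 CPM in the ANGPT2 libraries, against 27.8, 47.8 and 57.3 CPM in the control libraries. mt-Nd4l, another subunit, had 73.8, 128, 95.3 and 70.3 CPM in the ANGPT2 libraries, against 37.4, 67.6 and 71.00 CPM in the control libraries. mt-Atp8, of the ATP synthase, had 48.96, 71.6, 35.4 and 43.4 CPM in the ANGPT2 libraries, against 25.5, 37.99 and 57.3 CPM in the control libraries. The control male of batch 1 was the lowest in each, the groups overlapped, and the changes were 0.80 ± 0.25 (SE), 0.79 ± 0.26 (SE) and 0.62 ± 0.25 (SE). Without that male they were 0.47, 0.47 and 0.32, and mt-Atp8 was 0.41 without the ANGPT2 female of batch 1. Their share of the UMIs of these nuclei was 0.0869%, 0.134%, 0.0984% and 0.0818% in the ANGPT2 libraries, against 0.0448%, 0.0841% and 0.109% in the control libraries. In nuclei such RNA comes from outside the nucleus, and the part of that carry-over in the result was not tested. Nuclear-encoded respiratory chain genes had a median of -0.12, and 4 of 20 were higher and 16 lower, or -0.03 with 10 of 20 higher and 10 lower without the control female of batch 1.

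Immune and stress lists had most of their members on the lower side. Of the 9 tested interferon and MHC class I genes, 1 of 9 were higher and 8 lower, at a median of -0.17, and without the control female of batch 1 all 7 still tested were lower, at -0.61. The mean log2 level of this list was nonetheless highest in the ANGPT2 female of batch 2, at 2.53, against 2.35, 2.36 and 2.46 in the control libraries. H2-D1, an MHC class I heavy chain whose family has near-identical members, had 4.02, 6.07, 4.08 and 8.98 CPM in the ANGPT2 libraries, against 8.63, 11.1 and 8.19 CPM in the control libraries (-0.85 ± 0.32 (SE)). B2m, its light chain, had 4.53, 6.88, 5.45 and 5.98 CPM in the ANGPT2 libraries, against 8.22, 11.9 and 8.19 CPM in the control libraries, with the groups apart (-0.78 ± 0.30 (SE), or -0.43 without the control female of batch 1). For both genes the 8.19 CPM of the control male of batch 2 was 3 UMIs. Microglia express these genes highly, and the 7 microglial markers summed to 45.4, 48.4, 35.4 and 25.4 CPM in the ANGPT2 libraries, against 48.2, 70.1 and 49.2 CPM in the control libraries in the same nuclei. Their part in the result was not tested. Of the 20 tested endoplasmic reticulum and heat shock genes, 6 of 20 were higher and 14 lower, at a median of -0.24, which came to -0.00410 with the control male of batch 1 left out. Hspa5, the main chaperone of the endoplasmic reticulum, had 33.2, 34.6, 19.1 and 20.9 CPM in the ANGPT2 libraries, against 41.5, 36.6 and 49.2 CPM in the control libraries, with the groups apart (-0.41 ± 0.18 (SE)).

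Of the 15 cholesterol genes, 6 of 15 were higher and 9 lower, or 8 of 15 higher and 7 lower without the control female of batch 1. Of the 10 glucocorticoid receptor and target genes, 2 of 10 were higher and 8 lower, at a median of -0.14, or 0.04 with 7 of 10 higher and 3 lower without that library. Cdkn1a, the cell-cycle inhibitor p21, had a change of -1.45 ± 0.54 (SE), or -0.55 without it. Of the 16 tested circadian clock genes, 7 of 16 were higher and 9 lower. Bhlhe41, a clock repressor, had 16.1, 20.97, 9.53 and 7.48 CPM in the ANGPT2 libraries, against 28.1, 23.2 and 24.6 CPM in the control libraries, with the groups apart (-0.65 ± 0.23 (SE)). Per3, a period gene, had 120.2, 106, 57.2 and 40.4 CPM in the ANGPT2 libraries, against 142, 236 and 104 CPM in the control libraries (-0.92 ± 0.31 (SE), or -0.44 without the control female of batch 1), and the ANGPT2 libraries of batch 2 were the lowest. Of the 46 cytosolic ribosomal protein genes, 15 of 46 were higher and 31 lower, at a median of -0.10, or 0.03 with 27 of 46 higher and 19 lower without the control female of batch 1.

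Whether the vector's effect in Cux2 nuclei differed from that in other layers was tested as the difference of the log2 changes, with each library as a block. Against Rorb nuclei, 1 of 12653 genes (0.00790%) passed an adjusted p of 0.05 with edgeR, with 618 at an unadjusted p under 0.05. DESeq2 called 0, with 255 at an unadjusted p under 0.05, and edgeR called 35 with the batch as a replicate block on the difference. Leaving out 1 library gave 19 genes without the ANGPT2 male of batch 1, 0 without the ANGPT2 female of batch 1, 2 without the ANGPT2 female of batch 2, 6 without the control male of batch 1, 0 without the control female of batch 1, and it gave 12 when the control male of batch 2 was dropped. The gene was 9530026P05Rik, whose values in Cux2 nuclei stand above. In Rorb nuclei it had 4.18, 7.62, 0 and 14.9 CPM in the ANGPT2 libraries, against 12.02, 22.9 and 0 CPM in the control libraries. The difference was 2.53 ± 0.38 (SE; adjusted p = 0.0366), with ANGPT2 on the higher side in Cux2 nuclei and on the lower side in Rorb nuclei. Its adjusted p was 0.0887 without the control female of batch 1, 0.822 without the ANGPT2 female of batch 1, 0.0786 with doublets left out, 0.340 with at least 4 marker genes, 0.125 in batch 1 alone and 0.807 with DESeq2. Its Rorb values rest on 39 to 389 nuclei per library. In Rorb nuclei the 5 GABAergic genes summed to 1111, 710, 58.3 and 404 CPM in the ANGPT2 libraries, against 2147, 988 and 230 CPM in the control libraries. The 4 thalamic genes summed there to 333, 238, 14.1 and 56.4 CPM in the ANGPT2 libraries, against 489, 356 and 142 CPM in the control libraries. The part of such RNA or nuclei in the Rorb comparison was not tested. The next genes by p did not pass. Epha3, an ephrin receptor, differed by 1.36 ± 0.26 (SE; adjusted p = 0.177), Filip1, which binds filamin, by 1.59 ± 0.31 (SE; adjusted p = 0.177), and Bdnf by -1.24 ± 0.22 (SE; adjusted p = 0.154). Without the control male of batch 1, Bdnf had a difference of -1.45 (adjusted p = 0.0188). Without the control female of batch 1, its highest library in both kinds of nuclei, it had -0.94 (adjusted p = 0.308).

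Against Foxp2 nuclei, 41 of 14258 genes (0.288%) passed, 37 with a positive and 4 with a negative difference, Cux2 minus Foxp2. A positive difference can come from a higher ANGPT2 level in Cux2 nuclei or from a lower one in Foxp2 nuclei. DESeq2 called 11, with at least 4 marker genes required the count was 8 with edgeR, and with the batch as a replicate block on the difference it was 64. Leaving out 1 library moved the count to 26 without the ANGPT2 male of batch 1, 4 without the ANGPT2 female of batch 1, 18 without the ANGPT2 male of batch 2, 11 without the ANGPT2 female of batch 2, and it came to 117 when the control male of batch 2 was dropped. The 4 genes of smallest p were Synpo2, an actin-binding protein (2.14 ± 0.17 (SE; adjusted p = 1.47e-05)), Plekhg1, a guanine nucleotide exchange factor (2.43 ± 0.21 (SE; adjusted p = 2.17e-05)), Lef1, a Wnt-responsive transcription factor (3.20 ± 0.32 (SE; adjusted p = 0.000319)), and Prkcd, protein kinase C delta (2.10 ± 0.27 (SE; adjusted p = 0.00323)). None of these 4 passed when at least 4 marker genes were required. Without the control male of batch 1 all 4 still passed with edgeR. The adjusted p was then 9.33e-05 for Synpo2, 6.10e-05 for Plekhg1, 0.00166 for Lef1 and 0.00964 for Prkcd. In Cux2 nuclei Synpo2 had 13.4, 25.2, 2.72 and 41.9 CPM in the ANGPT2 libraries, against 14.7, 14.4 and 0 CPM in the control libraries. In Foxp2 nuclei it had 21.7, 36.5, 8.04 and 53.6 CPM in the ANGPT2 libraries, against 104, 93.4 and 9.57 CPM in the control libraries. The Foxp2 nuclei of the batch 1 controls were the highest for it. Synpo2 was also a leading gene of the sub-cluster of 57 Cux2 nuclei with GABAergic genes, of which 91.2% were doublet calls. It had 271 CPM there, against 5.95 CPM in the rest of the Cux2 nuclei. With doublets left out its difference was 2.59 (edgeR, adjusted p = 0.000220). Lef1 had 5.87, 11.3, 0 and 37.4 CPM in the ANGPT2 libraries, against 5.79, 1.96 and 0 CPM in the control libraries in Cux2 nuclei, and 5.62, 6.51, 0 and 26.2 CPM in the ANGPT2 libraries, against 34.3, 16.6 and 0 CPM in the control libraries in Foxp2 nuclei.

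Some marker lists of other cells had library patterns like those of these 41 genes, and others did not. In Foxp2 nuclei the control male of batch 1 was the highest library for 30 of the 41 genes and the control female of batch 1 for 6. Over the 13128 genes that passed the filter in Foxp2 nuclei, these 2 libraries were the highest for 13.5% and 16.7%. The 41 were picked by their p from the same libraries. The 4 thalamic genes, of which Lef1 and Tcf7l2 are themselves among the 41, summed in Foxp2 nuclei to 41.1, 45.1, 11.5 and 48.6 CPM in the ANGPT2 libraries, against 133, 97.02 and 17.2 CPM in the control libraries. The other 2, Slc17a6 and Ramp3, summed there to 17.6, 19.2, 10.3 and 11.2 CPM in the ANGPT2 libraries, against 34.5, 26.3 and 13.4 CPM in the control libraries. The 5 GABAergic genes, none of them among the 41, summed there to 253, 221, 351 and 231 CPM in the ANGPT2 libraries, against 658, 409.5 and 285 CPM in the control libraries, highest in the control male of batch 1. In Cux2 nuclei the thalamic genes summed to 39.4, 46.98, 14.97 and 85.3 CPM in the ANGPT2 libraries, against 48.1, 27.3 and 10.9 CPM in the control libraries. Other lists in Foxp2 nuclei went both ways. The 7 microglial genes were highest there in the batch 1 controls, at 92.8 and 105 CPM. The 6 astrocyte genes summed there to 977, 876, 1185 and 1194 CPM in the ANGPT2 libraries, against 632, 706 and 1215 CPM in the control libraries. That list includes Slc1a2, which was found in most Cux2 nuclei. The part of RNA or nuclei of other cells, thalamic ones included, in the 41 calls was not tested.

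The share of Slc17a7 nuclei that met the Cux2 rule was 19.4%, 21.8%, 14.3% and 13.8% in the ANGPT2 libraries, against 17.1%, 25.3% and 10.8% in the control libraries. It averaged 17.3% ± 3.90 in the ANGPT2 group and 17.7% ± 7.29 in the control group (SD, n = 4 and 3), a difference of -0.409 percentage points (exact permutation test, two-sided, p = 0.914). Because a deeper nucleus shows more of the markers, every nucleus was also thinned to 3000 UMIs and the rule applied again, which left 5 to 57 Cux2 nuclei per library. The thinned share was 8.40%, 7.84%, 4.76% and 4.65% in the ANGPT2 libraries, against 5.92%, 9.88% and 7.59% in the control libraries. The groups overlapped, at 6.41% ± 1.99 in the ANGPT2 group and 7.79% ± 1.99 in the control group, a difference of -1.38 points (exact permutation test, p = 0.429, the smallest possible p being 0.0286). Within batch 1 the difference was 0.225 points and within batch 2 it was -2.88 points. No difference in the share was detectable at this depth.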

How the data were processed

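Each library held nuclear RNA of fresh-frozen brain tissue from 1 mouse, captured in droplets. The deposited matrices give, for each barcode and gene, an unnormalized UMI count, which the authors made with Cell Ranger 6.1.2 on mm10 (GRCm38), per the submitters' processing notes. The nuclei were selected on these counts, and the members and gene lists (25) were chosen with earlier results of these data known. Coordinates come from GENCODE M21. Doublets were called per library at a rate proportional to its nuclei, and sub-clusters used 2000 variable genes, 30 components, 15 neighbours and a resolution of 0.8 (scanpy 1.11.5).

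Counts were summed per library over the Cux2, Rorb or Foxp2 nuclei, and CPM divides by that sum. All 7 libraries entered edgeR 4.0.16 (quasi-likelihood test, TMM factors, filterByExpr with a minimum count of 10 and a minimum total of 15, treatment as the only term, R 4.3.3), tested on simulated data. A log2 change is ANGPT2 over control. Adjusted p-values (Benjamini-Hochberg, over all genes, threshold 0.05) measure the spread between these mice. Differences between kinds of nuclei were tested as an interaction with the library as a block. Shares were compared by exact permutation over the 35 possible assignments of libraries to groups (scipy 1.17.1). Genes named are the 12 of smallest p on each side, up to 3 per list, with a change given where the unadjusted p was under 0.05, the 4 of smallest p in each interaction, the genes of the rule, and Angpt2, Tek, App and Thy1. Some genes that these rules select are not reported here. Changes of lists are described by counts and medians.

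The labels put the same batch number on libraries of both groups, so the batches pair them by label. Deviations from the group means correlated between same-batch libraries of different groups at 0.0232 to 0.173 in batch 1 and 0.0771 to 0.0774 in batch 2. Alternatives were DESeq2 1.42.0, RLE size factors, no filter, batch or sex in the fit, doublets left out, at least 2 or 4 marker genes, thinned nuclei, leaving out each library, and, chosen after seeing the data, batch 1 alone and sub-clusters filled over 90% by 1 library left out.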

Additional observations from a re-analysis of the deposited data

Results flagged for a closer look

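Trpc4 in the ANGPT2 female of batch 2, at 25.43 CPM, lay far below the other 3 ANGPT2 libraries, which were between 44.2 and 46.8 CPM. Angpt2 in the same library, at 5.984 CPM or 4 UMIs, lay far above the other 3, which were between 1.36 and 1.84 CPM. Chance alone would set apart a sample in about 1 in 20 groups, and 2 of the 88 groups of 4 looked at had one.

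The log2 change, ANGPT2 over control, differed between kinds of nuclei for 5 of the genes named. For 9530026P05Rik the difference of the log2 changes, Cux2 nuclei minus Rorb nuclei, was 2.535, and it was not called with DESeq2, with doublets left out, with at least 4 marker genes, in batch 1 alone, or without the ANGPT2 or the control female of batch 1. For Cux2 nuclei minus Foxp2 nuclei it was 2.138 for Synpo2, 3.199 for Lef1, 2.435 for Plekhg1 and 2.103 for Prkcd. The last 4 were not called when at least 4 marker genes were required. In Foxp2 nuclei Synpo2 and Lef1 were highest in the control male of batch 1, which was also the highest there for the thalamic and GABAergic markers, whose part was not tested.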

How the results depend on the processing

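The count of genes past the threshold between ANGPT2 and control libraries was 0 with DESeq2, RLE size factors, sex in the fit and the batch as a replicate block (615 at an unadjusted p under 0.05), 8 with no filter, and 0 to 116 on leaving out 1 library. The difference from Rorb nuclei had 148 genes with no filter, 2 without doublets, 35 with the replicate block on the difference, 0 with DESeq2, 0 in batch 1 alone (chosen after seeing the data), and 0 to 19 on leaving out 1 library. That from Foxp2 nuclei had 307 with no filter, 8 with at least 4 marker genes, 64 with the replicate block on the difference, 11 with DESeq2, and 4 to 117 on leaving out 1 library. Without the filter, 23704 genes were tested between the groups in place of 13344. Other causes were not tested.

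The thinned share of Cux2 nuclei differed by -1.33 points with the replicate block (p = 0.444, exact permutation within batches), by 1.06 points at 6000 UMIs, by 0.763 with at least 4 marker genes and by 0.225 in batch 1 alone, and by -2.32 to -0.338 on leaving out 1 library.

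Of 67 genes followed, the log2 change of 4, all within 1 SE of 0 except Sv2c, changed sign. For Sv2c it ran from -1.21 to 0.0166 on leaving out 1 library. For Angpt2 it was 0.166 with DESeq2, 0.0250 with at least 2 marker genes and -0.305 to 0.0705 on leaving out 1 library. That range lacks the fits without the ANGPT2 female, the control male or the control female of batch 1, in which Angpt2 was not tested. For App it was -0.273 in thinned nuclei and -0.00218 to 0.120 on leaving out 1 library. For Thy1 it was 0.0892 with at least 4 marker genes, 0.0951 in batch 1 alone, 0.00522 with replicate block and sex, and -0.101 to 0.0359 on leaving out 1 library. Depth limits genes of a few CPM, most of all in the 60 to 80 nuclei per library of batch 2.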
